A study of Homo sapiens with 54 samples.

Results

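NR4A1, NR4A2 and NR4A3 (also called NUR77, NURR1 and NOR1) are the 3 members of the NR4A family of orphan nuclear receptors, and they were taken as the rows with these names among the 60676 genes of each library. RNA-seq was analyzed for 53 libraries in 18 conditions of H9 hMSN-like cells, which are cultures differentiated toward striatal medium spiny neurons from 1 human embryonic stem cell line, so that replicates are cultures of a single line. At 1 mM and at 1 µM, dopamine was given acutely as a single dose or chronically as a daily dose for 5 days, and RNA was taken at 1 h or at 24 h from the final exposure, with PBS cultures as the controls of each dose. Dopamine was made up in ascorbic acid and each exposure lasted 1 h. The PBS controls are not said to hold ascorbic acid. Against PBS, effects of dopamine and of ascorbic acid therefore cannot be told apart. A time course of daily 1 mM dopamine for 2, 3, 4 or 5 days was sampled 1 h after the last dose beside an AA (ascorbic acid) vehicle. In a further experiment SKF82958, an agonist of D1-like dopamine receptors, and quinpirole, an agonist of D2-like receptors, were each given at 50 µM beside water. Every condition had 3 libraries apart from 5 Day with 2. The acute and chronic cultures also differed in days in culture, so the number of doses and the age of the culture cannot be told apart, and the age of the PBS cultures is not given in the sources used here.

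NR4A genes encode transcription factors that need no known ligand for activity. They are immediate early genes, meaning that neurons transcribe them within minutes of a stimulus without making new protein first, with CREB, MEF2 and SRF among the factors that act on them. The receptors bind DNA as monomers at the NBRE element or as dimers, and NR4A1 and NR4A2 can pair with the retinoid X receptors. NR4A1 and NR4A3 are known in the striatum for their response to dopaminergic drugs, and NR4A2 is best known for the development and upkeep of midbrain dopamine neurons.

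In the deposited annotation of GRCh38, NR4A1 (ENSG00000123358) lies on the plus strand of chromosome 12 from 52022832 to 52059507, NR4A2 (ENSG00000153234) on the minus strand of chromosome 2 from 156324437 to 156342348, and NR4A3 (ENSG00000119508) on the plus strand of chromosome 9 from 99821855 to 99866891. Promoter windows came from RefSeq starts on GRCh38.p14, and the set used here held 2 windows for NR4A1, 1 for NR4A3 and 0 for NR4A2. NR4A2 therefore could not be compared with the other members. Whether promoter sites play a part in the responses to dopamine was not tested. The cAMP response element, the site through which CREB acts, was among the sites searched. Capitals mark TGACG, the half-site of that element, on either strand. Only bases before the gene start of the deposited annotation are printed.
NR4A3, chr9:99821635-99821854, plus strand: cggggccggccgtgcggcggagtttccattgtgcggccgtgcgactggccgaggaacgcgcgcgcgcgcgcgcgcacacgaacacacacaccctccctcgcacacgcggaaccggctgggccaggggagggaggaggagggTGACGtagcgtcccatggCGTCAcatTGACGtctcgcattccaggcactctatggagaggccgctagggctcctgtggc
NR4A1, chr12:52022582-52022831, plus strand: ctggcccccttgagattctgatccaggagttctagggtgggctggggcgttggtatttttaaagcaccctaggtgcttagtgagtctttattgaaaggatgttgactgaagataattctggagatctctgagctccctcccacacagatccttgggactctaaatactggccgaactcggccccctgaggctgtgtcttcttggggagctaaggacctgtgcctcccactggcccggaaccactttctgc
The 250 bases before the RefSeq start of NR4A3 held 4 such half-sites, of which 3 are in the printed part. Of 35116 promoter windows cut to the same 250 bases, 0.236% held at least 4 half-sites and 21.2% held at least 1. The full element TGACGTCA, which contains the half-site, was in 1.65% of the windows, the NBRE letters AAAGGTCA were in 1.05%, the CArG box of SRF was in 1.16% and the MEF2 site was in 2.8%. Neither window of NR4A1 held any of these, and the NR4A3 window held only the half-sites. The NR4A1 windows cover only the 250 bases before 2 starts, at 52022832 and 52037715. Any start further along the gene, which reaches 52059507, was not searched. The windows therefore do not show that NR4A1 lacks these sites.

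Levels are given as deposited TPM, which counts exon reads per length of exon and so allows comparison between genes. Tests were run on total gene reads, which add intron reads to exon reads, with edgeR's quasi-likelihood test over all genes. In the dopamine experiments at both doses a DEG combined an adjusted p-value below 0.05 with a change of 1 or more on the log2 scale in either direction and a mean of 1 TPM or more in the higher group, while in the time course, with the agonists and for differences between doses the adjusted p-value alone decided. Libraries held 7548913 to 33715972 gene reads apart from quinpirole replicate 1, which held 4121674, of which 96.7% lay in introns against 12.3% to 31.2% in the other 52 libraries. Since the share of intron reads also differed between conditions (12.3% to 13.2% at 1 mM Acute 1 h against 19.5% to 21.8% in its PBS libraries), fits on exon reads alone are given beside those on total gene reads. Over the 12 control libraries the median TPM of each of 12 markers listed for striatal neurons was at least 1. PPP1R1B (DARPP-32) was at 22.7 and BCL11B (CTIP2) at 56.1. The list also holds MAP2, a marker of neurons in general, at 477. Progenitor markers were also high, with SOX2 at 559, and the dopamine neuron markers TH, SLC6A3 and PITX3 had medians of 2.93, 0.301 and 0. In such bulk cultures fewer cells of a type and less RNA per cell cannot be told apart.

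At 1 h after a single dose of 1 mM dopamine NR4A1 and NR4A3 were above PBS, and NR4A2 did not pass the test. NR4A1 was at 14, 13.9 and 15.8 TPM in the PBS libraries and at 71.5, 44.8 and 50.7 TPM at Acute 1 h. Every treated library was above every PBS library, and the log2(fold change) was 2.14 ± 0.28 (SE, n = 3 per group, adjusted p = 0.000161), a 4.42-fold rise. NR4A3 rose from 20.2, 18.7 and 22.7 TPM to 65.5, 50.0 and 48.0 TPM, again without overlap, with a log2(fold change) of 1.78 ± 0.19 (adjusted p = 8.12e-05). NR4A2 was at 25.7, 28.4 and 29.6 TPM in PBS and at 37.0, 26.1 and 25.2 TPM at Acute 1 h, so that 1 library lay above the controls and the groups overlapped. Its log2(fold change) was 0.00 with a 95% interval from -0.33 to 0.34 (adjusted p = 0.99). Of all 26006 genes tested, 4.95% were DEGs in this comparison and 47.2% had an adjusted p-value under 0.05, so 2 of the 3 NR4A genes stood in the smaller set. With exon reads alone the log2(fold change) values were 2.00 for NR4A1 (adjusted p = 0.00206), 0.14 for NR4A2 (adjusted p = 0.67) and 1.47 for NR4A3 (adjusted p = 0.000246), where 16% of genes passed.

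The same pair was above PBS by test 1 h after a dose of 1 µM. NR4A3 rose from 6.89, 7.17 and 7.59 TPM to 26.2, 27.4 and 27.8 TPM, with little spread in either group and a log2(fold change) of 2.00 ± 0.16 (adjusted p = 2.52e-05). NR4A1 was at 13.2, 3.42 and 11.8 TPM in PBS and at 52.2, 12.4 and 63.4 TPM at Acute 1 h. Replicate 2 was the lowest library of both groups, its treated value lay inside the PBS range, and its PBS library had 0 junction reads of NR4A1 where the other PBS libraries had 79 and 57. The log2(fold change) of NR4A1 was 1.91 ± 0.43 (adjusted p = 0.0195), and it did not pass the threshold in fits that left out 1 of 5 libraries, which leaves only NR4A3 as a DEG in those fits. NR4A2 was at 27.5, 28.9 and 21.3 TPM in PBS and at 40.0, 39.5 and 44.4 TPM at Acute 1 h. By TPM, every treated library was above every PBS library, yet the log2(fold change) was 0.16 by total gene reads (adjusted p = 0.525), 0.66 by exon reads (adjusted p = 0.0651, 5.77% of genes passing) and -0.68 by intron reads (adjusted p = 0.127, 12.8% passing), so no direction was called. Of 22537 genes tested, 1.73% were DEGs and 5.83% had an adjusted p-value under 0.05.

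The doses were compared in 1 fit of both experiments. The 1 h response to an acute dose differed between 1 mM and 1 µM by 0.34 for NR4A1 (95% interval from -0.79 to 1.46), by -0.04 for NR4A2 (from -0.53 to 0.45) and by -0.10 for NR4A3 (from -0.63 to 0.43) on the log2 scale. The adjusted p-values were 0.675, 0.919 and 0.799, while 27.9% of all genes passed. The PBS libraries of the 2 experiments had different levels of NR4A3, which was at 20.5 ± 2.05 TPM (SD, n = 3) for 1 mM and at 7.22 ± 0.352 TPM (SD, n = 3) for 1 µM. By intron reads alone the NR4A2 difference was 0.97 (adjusted p = 0.0301, 30.5% of genes passing), against -0.50 by exon reads (adjusted p = 0.413).

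**Figure D1:**
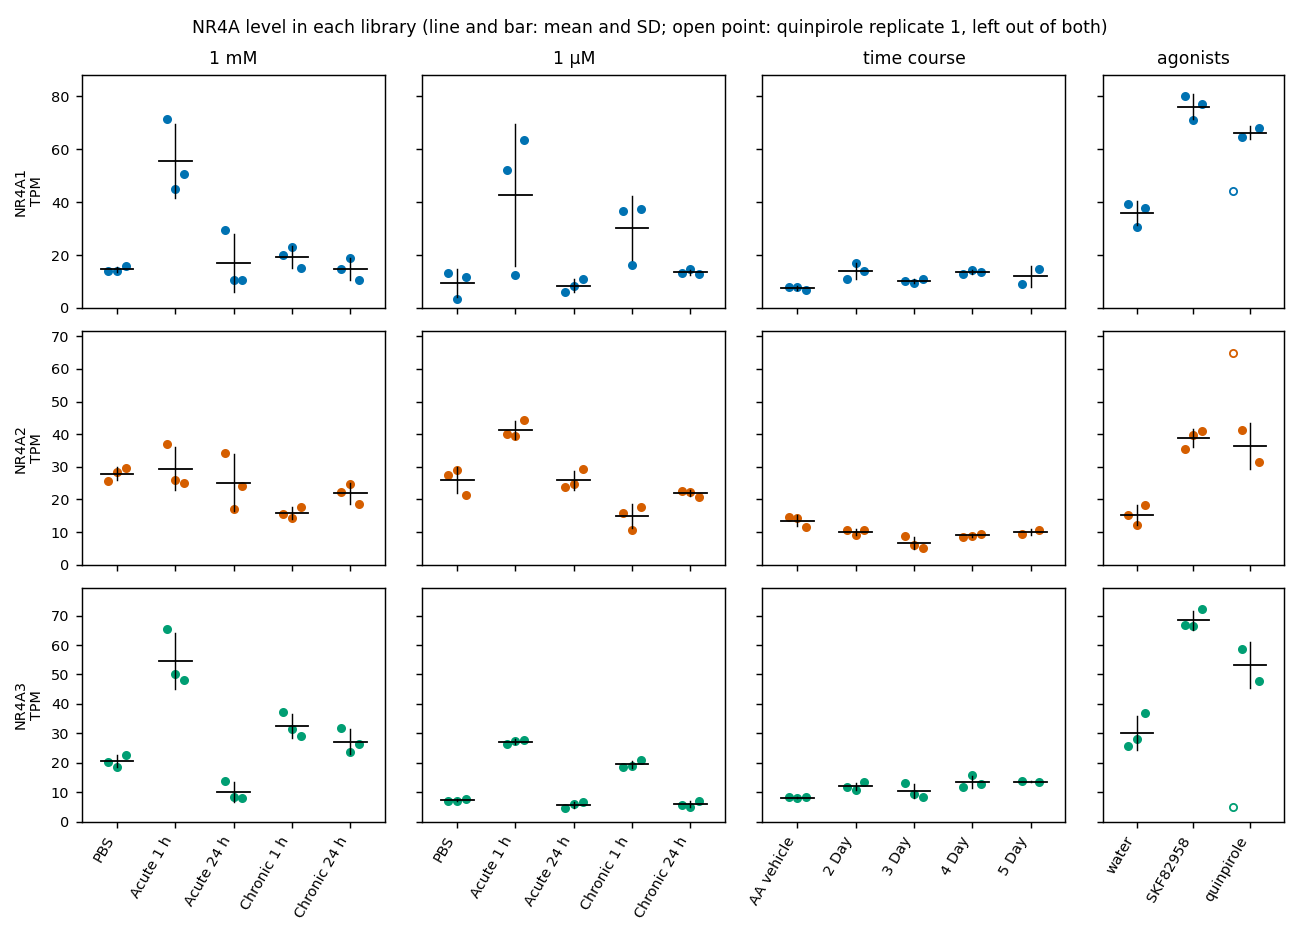
TPM (vertical axis) of NR4A1, NR4A2 and NR4A3 (rows) in each library of the 4 experiments (columns), with a point per library and the mean and SD of each condition as a line and bar. Within each experiment with such groups, NR4A1 and NR4A3 have their highest means 1 h after an acute dose of dopamine or after an agonist, NR4A2 stands lower at Chronic 1 h than in PBS, and the open point is quinpirole replicate 1, with 10 or fewer exon reads for each gene.

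At 24 h after an acute dose of 1 mM, NR4A3 had passed to the other side of its control. It was at 13.8, 8.26 and 7.86 TPM, below all PBS libraries, with a log2(fold change) of -0.98 ± 0.20 (adjusted p = 0.0022), a value just under the fold threshold of a DEG. Without Acute 24 h replicate 1 it was -1.18 (adjusted p = 0.000715) and with exon reads alone -1.19 (adjusted p = 0.00225), which made NR4A3 a DEG, as leaving out PBS replicate 2 also did. DEGs made up 4.34% of genes, and 50% passed the adjusted p-value without Acute 24 h replicate 1 and 15.5% with exon reads. The share of all genes with an adjusted p-value under 0.05 was 43.8%, so passing that threshold alone was common. NR4A1 was at 29.6, 10.6 and 10.7 TPM, replicate 1 being above and the others below the PBS libraries, with a log2(fold change) of 0.18 (95% interval from -0.40 to 0.76). Without replicate 1 it was -0.26 (adjusted p = 0.318). NR4A2 was at 34.3, 17.2 and 24.1 TPM, which spans the PBS range, with a log2(fold change) of -0.36 (adjusted p = 0.0755).

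The fall from 1 h to 24 h was the widest change measured for NR4A3. At 1 mM its log2(fold change) of Acute 24 h against Acute 1 h was -2.76 ± 0.20 (adjusted p = 1.18e-05) and at 1 µM -2.33 ± 0.17 (adjusted p = 1.21e-05). For NR4A1 the values were -1.96 ± 0.28 at 1 mM (adjusted p = 0.00394) and -2.05 ± 0.44 at 1 µM (adjusted p = 0.0639). The latter missed the threshold. It passed with exon reads alone, at -2.35 (adjusted p = 0.0202, as 0.592% of genes did), and the number of DEGs among the 3 genes was 2 in place of 1 without Acute 1 h replicate 2. NR4A2 had -0.36 at 1 mM (adjusted p = 0.177) and -0.11 at 1 µM (adjusted p = 0.73). DEGs made up 0.827% of genes at 1 mM and 0.226% at 1 µM. At 1 µM all 3 genes were near their PBS levels after 24 h, with NR4A1 at 5.91, 8.3 and 10.9 TPM, NR4A2 at 23.7, 24.7 and 29.2 TPM, and NR4A3 at 4.65, 6.11 and 6.53 TPM. The last group lay just below all its PBS libraries, with a log2(fold change) of -0.34 (95% interval from -0.69 to 0.02, adjusted p = 0.379), where 0.652% of genes were DEGs.

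After 5 daily doses NR4A2 was below its PBS control 1 h after the last dose at both concentrations. At 1 mM it was at 15.6, 14.3 and 17.7 TPM, under every PBS library, with a log2(fold change) of -0.85 ± 0.16 (adjusted p = 0.0221). At 1 µM it was at 16.0, 10.7 and 17.8 TPM, again without overlap, with -0.86 ± 0.14 (adjusted p = 0.00583). Both passed the adjusted p-value and neither reached the fold threshold of a DEG. With 1 library left out, the values ranged from -0.92 to -0.79 at 1 mM and from -0.98 to -0.74 at 1 µM. Whether the adjusted p-value stayed under 0.05 in each of those fits is not given here, and counts of DEGs cannot show it. In these comparisons 0.992% of genes at 1 mM and 3.58% at 1 µM had an adjusted p-value under 0.05. Exon reads gave -0.86 (adjusted p = 0.0413) and -0.82 (adjusted p = 0.0416), where 2.08% and 2.58% of genes passed. DEGs made up 0.411% of genes at 1 mM. The summed TPM of 4 astrocyte markers was 193 to 204 at 1 mM Chronic 1 h and 114 to 150 in PBS, whereas at 1 µM it was 57.9 to 63.8 and 63.5 to 70.7. The sum of the 12 markers listed for striatal neurons was 348 to 375 at 1 µM Chronic 1 h and 452 to 477 in PBS. It was lower without overlap as NR4A2 was, and 577 to 624 against 592 to 677 at 1 mM. This sum rests mostly on the general neuron marker MAP2. In the control libraries MAP2 had a median of 477 TPM, with BCL11B next at 56.1, so the sum does not show a change in striatal markers as such. The sum of 5 progenitor markers was 1110 to 1200 against 1270 to 1350 at 1 mM, also lower without overlap, and 1590 to 1690 against 1620 to 1860 at 1 µM. The part of cell composition in these results was not tested.

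NR4A3 was above its control at Chronic 1 h, by test at 1 µM only. At 1 µM it was at 18.5, 18.9 and 20.9 TPM, above all PBS libraries, with a log2(fold change) of 1.51 ± 0.16 (adjusted p = 0.000342), where 0.945% of genes were DEGs. At 1 mM it was at 37.2, 31.3 and 29.2 TPM, also above all PBS libraries, with 0.63 ± 0.19 (adjusted p = 0.149). This value passed the threshold once Acute 24 h replicate 1, a library outside this comparison, was left out of the shared fit (0.63, adjusted p = 0.0207), where 9.3% of genes passed. NR4A1 was at 36.7, 16.2 and 37.4 TPM at 1 µM, above all PBS libraries, with 1.54 ± 0.43 (adjusted p = 0.0714), and it passed with exon reads, at 1.75 (adjusted p = 0.043). Without Chronic 1 h replicate 2, 2 of the 3 genes were DEGs in place of 1. At 1 mM NR4A1 was at 19.9, 23.2 and 15.0 TPM, which overlaps PBS, with 0.36 (95% interval from -0.22 to 0.94, adjusted p = 0.712). The differences between the doses were -1.17 for NR4A1 (adjusted p = 0.448), 0.02 for NR4A2 (adjusted p = 0.994) and -0.87 for NR4A3 (adjusted p = 0.24), where 0.0957% of genes passed.

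Chronic 1 h was also compared directly with Acute 1 h, to ask whether the response to the last of 5 doses differed from that to a single dose. At 1 mM NR4A1 was lower by a log2(fold change) of -1.78 ± 0.28 (adjusted p = 0.000421), NR4A3 by -1.15 ± 0.19 (adjusted p = 0.000575) and NR4A2 by -0.85 ± 0.16 (adjusted p = 0.00114), all without overlap. The first pair were DEGs, in a comparison with 3.38% DEGs and 40.1% of genes under the adjusted p threshold. NR4A3 was at -0.85 with exon reads alone (adjusted p = 0.00717, 11.3% of genes passing) and then was not a DEG, and it was not one either without Acute 1 h replicate 1. At 1 µM NR4A2 was lower by -1.01 ± 0.14 (adjusted p = 0.00654) and was a DEG, as 0.328% of genes were, whereas NR4A1 had -0.36 (95% interval from -1.26 to 0.53) and NR4A3 -0.48 (from -0.82 to -0.14, adjusted p = 0.182). These intervals overlap, and whether the change differed between doses or genes was not tested. NR4A2 lay close to the fold threshold, and fits without Acute 1 h replicate 3, Chronic 1 h replicate 1 or Chronic 1 h replicate 2 gave no DEG among the 3 genes.

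At 24 h after the last of 5 doses, no member was a DEG by edgeR or DESeq2, and NR4A2 at 1 mM was the 1 member with an unadjusted p under 0.05. At 1 mM NR4A3 was at 31.7, 23.5 and 26.4 TPM, above all PBS libraries, with a log2(fold change) of 0.34 (95% interval from -0.07 to 0.75, adjusted p = 0.863). NR4A2 was at 22.4, 24.7 and 18.5 TPM, below all PBS libraries, with -0.38 (from -0.72 to -0.04, adjusted p = 0.636). NR4A1 was at 14.9, 19.0 and 10.4 TPM, around PBS. At 1 µM the values were 0.40 for NR4A1, -0.05 for NR4A2 and -0.26 for NR4A3, with adjusted p-values of 0.904 or more. DEGs were 0.0961% of genes at 1 mM. At 1 µM edgeR called 0 of 22537 genes, 0% (1031 had an unadjusted p under 0.05) and DESeq2 called 4. From Chronic 1 h to Chronic 24 h at 1 µM, NR4A3 fell by 1.78 ± 0.16 on the log2 scale (adjusted p = 0.000101) and was a DEG, as 0.506% of genes were. NR4A2 rose by 0.80 ± 0.14 in the same comparison (adjusted p = 0.0134), where 1.62% of genes passed. At 1 mM the same step gave -0.40, 0.47 and -0.29 for NR4A1, NR4A2 and NR4A3, none of them a DEG, among 0.146% of genes.

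**Figure D2:**
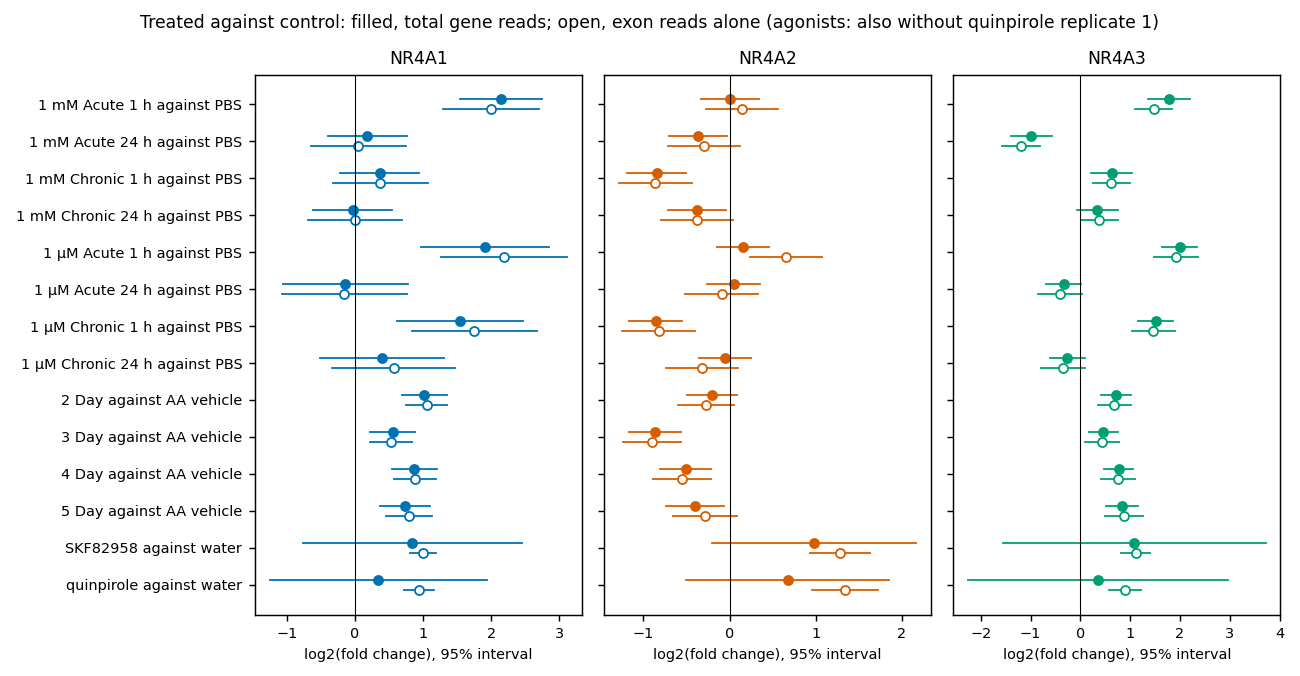
log2(fold change) of each NR4A gene (panels) against its control, with 95% intervals, for the 14 comparisons of a treatment with PBS, AA vehicle or water (rows). Filled points are total gene reads and open points exon reads, and the open points of the agonists also leave out quinpirole replicate 1, which narrows the intervals.

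In the time course of daily 1 mM dopamine, NR4A1 and NR4A3 stood above the AA vehicle and NR4A2 below it by TPM on each day sampled. By the test on total gene reads NR4A2 passed on 3 Day only. The vehicle libraries were at 8.09, 7.77 and 6.66 TPM for NR4A1, at 14.5, 14.4 and 11.5 TPM for NR4A2 and at 8.22, 7.97 and 8.29 TPM for NR4A3. On 2 Day, NR4A1 was at 11, 16.9 and 14.1 TPM, with a log2(fold change) of 1.02 ± 0.15 (adjusted p = 0.00403), and NR4A3 at 11.7, 10.8 and 13.4 TPM, with 0.72 ± 0.14 (adjusted p = 0.0137). Both were DEGs, among 3.35% of genes. On 3 Day, when 4.95% of genes were DEGs, NR4A2 was the member called by total gene reads, while exon reads, uniquely mapped reads, DESeq2's size factors, no filter or only the groups compared gave 2 members and DESeq2 gave 3. It was at 8.88, 6.09 and 5.22 TPM, its lowest mean of the 18 conditions, with -0.86 ± 0.14 (adjusted p = 0.00501), beside 0.55 for NR4A1 (adjusted p = 0.0563) and 0.46 for NR4A3 (adjusted p = 0.0727). On 4 Day, with 2.13% DEGs, NR4A1 had 0.87 ± 0.15 (adjusted p = 0.0109) and NR4A3 0.77 ± 0.14 (adjusted p = 0.0119), with NR4A2 at -0.51 (adjusted p = 0.0761). On 5 Day, with 1.02% DEGs and 2 libraries, NR4A3 had 0.84 ± 0.15 (adjusted p = 0.0249), NR4A1 0.73 (adjusted p = 0.0575) and NR4A2 -0.40 (adjusted p = 0.152). The dosing on 5 Day was that of 1 mM Chronic 1 h, with another control. There NR4A2 passed the adjusted p-value, at -0.85 (adjusted p = 0.0221), and NR4A3 did not, at 0.63 (adjusted p = 0.149). The difference between these experiments was not tested.

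The groups of the time course did not overlap with the vehicle for any of the 3 genes on any of the 4 days. These 4 comparisons share their vehicle libraries, so the like direction on each day is not independent evidence. Leaving out 1 library changed the number of DEGs among the 3 genes, to 1 on 2 Day (vehicle replicates 1 and 2, 2 Day replicates 2 and 3), to 1 or 0 on 4 Day (each vehicle library, 4 Day replicates 2 and 3) and to 0 on 5 Day (each vehicle library). Between days, 5 Day against 2 Day gave -0.29 for NR4A1, -0.20 for NR4A2 and 0.12 for NR4A3 with adjusted p-values of 0.624, 0.693 and 0.79. The values for 5 Day against 3 Day were 0.18, 0.46 and 0.37, with adjusted p-values of 0.668, 0.215 and 0.286. DEGs made up 0.00461% and 0.0461% of genes in these comparisons. The summed TPM of 4 mesenchymal markers was 114 to 162 in the vehicle. From 2 Day to 5 Day it was 149 to 232, 185 to 341, 232 to 251 and 189 to 297, above the vehicle without overlap from 3 Day on. The sum of 4 astrocyte markers was 151 to 158 in the vehicle and 153 to 196, 159 to 180, 169 to 190 and 173 to 183, likewise above it from 3 Day on. The sum of 5 progenitor markers was 1330 to 1400 in the vehicle and lower without overlap on each day, at 1100 to 1250, 1220 to 1280, 1140 to 1220 and 967 to 1310 from 2 Day to 5 Day, as NR4A2 was. The part of cell composition in the time course results was not tested.

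After SKF82958 all 3 NR4A genes stood above water, and so they did in 2 of the 3 quinpirole libraries. Water cultures had high levels of NR4A1 (39.2, 30.6 and 37.7 TPM) and NR4A3 (25.7, 27.9 and 36.8 TPM) and NR4A2 at 15.1, 12.2 and 18.2 TPM. After SKF82958, NR4A1 was at 80.2, 71.0 and 77.2 TPM, NR4A2 at 35.6, 39.8 and 41.0 TPM and NR4A3 at 66.7, 66.4 and 72.1 TPM, each above every water library. After quinpirole, replicates 2 and 3 were at 64.6 and 67.9 TPM for NR4A1, at 41.3 and 31.5 TPM for NR4A2 and at 58.7 and 47.7 TPM for NR4A3. Quinpirole replicate 1 had 10, 8 and 1 exon reads for the 3 genes, so its TPM values of 44.2, 65.0 and 5.1 rest on few reads. In the fit of all 9 libraries the spread was wide and edgeR called 0 of 20475 genes (0%) for either agonist (57 for SKF82958 and 3321 for quinpirole had an unadjusted p under 0.05), with log2(fold change) values for SKF82958 of 0.84 ± 0.69, 0.98 ± 0.51 and 1.08 ± 1.14 for NR4A1, NR4A2 and NR4A3. DESeq2 called 9 genes for SKF82958 and 0 for quinpirole.

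Without quinpirole replicate 1, the SKF82958 values were 0.84 ± 0.10 for NR4A1 (adjusted p = 0.00309), 0.98 ± 0.17 for NR4A2 (adjusted p = 0.0295) and 1.08 ± 0.15 for NR4A3 (adjusted p = 0.00645), where 0.382% of genes passed. With only the SKF82958 and water libraries in the fit, all 3 genes passed too, as 0.482% of genes did. For quinpirole with 2 libraries, NR4A1 had 0.85 ± 0.11 (adjusted p = 0.0109), NR4A2 1.09 ± 0.19 (adjusted p = 0.0786) and NR4A3 0.92 ± 0.16 (adjusted p = 0.0879), where 0.0968% of genes passed. Exon reads alone, again without that library, gave 0.94, 1.34 and 0.90 for quinpirole with adjusted p-values of 0.000201, 0.002 and 0.0184, and 1.00, 1.28 and 1.11 for SKF82958 with 1.96e-05, 0.000631 and 0.00042. In those fits 0.184% and 0.624% of genes passed. The agonists were compared at the same 50 µM dose, and the exon read differences of SKF82958 from quinpirole were 0.06 for NR4A1 (95% interval from -0.15 to 0.27), -0.06 for NR4A2 (from -0.41 to 0.30) and 0.21 for NR4A3 (from -0.10 to 0.52). The adjusted p was 0.998 for each, which does not show that the agonists act alike. This was the 1 pair of compounds compared. In this exon fit, without quinpirole replicate 1, 0 of 16343 genes (0%) passed in edgeR. By total gene reads, also without that library, 0.00484% of genes passed.

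The NR4A2 share of the family's summed TPM was below its control 1 h after dopamine, in the time course and at 1 mM Chronic 24 h. In the other 24 h conditions it overlapped PBS. Differences in share were not tested. In each PBS and AA vehicle library NR4A2 had the highest TPM of the 3 genes, with 42.9% to 46.6% of their summed TPM in PBS of 1 mM, 52.4% to 73.2% in PBS of 1 µM and 43.4% to 47.9% in the AA vehicle. In water its share was 17.2% to 19.7% and NR4A1 was highest, and with all 3 genes at higher levels it was 19.5% to 22.5% after SKF82958 and 21.4% to 25.1% in quinpirole replicates 2 and 3. One hour after acute dopamine the NR4A2 share was 20.3% to 21.6% at 1 mM and 32.7% to 49.8% at 1 µM, and at Chronic 1 h it was 20.7% to 28.5% and 22.5% to 23.4%. At 24 h it was 44.2% to 56.4% (Acute) and 32.5% to 36.7% (Chronic) at 1 mM, and 62.6% to 69.2% and 51.3% to 54.3% at 1 µM. Over the time course it was 21.3% to 32.1%, below each vehicle library. Shares add up to the whole, so a rise of 1 member lowers the share of the others.

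**Figure D3:**
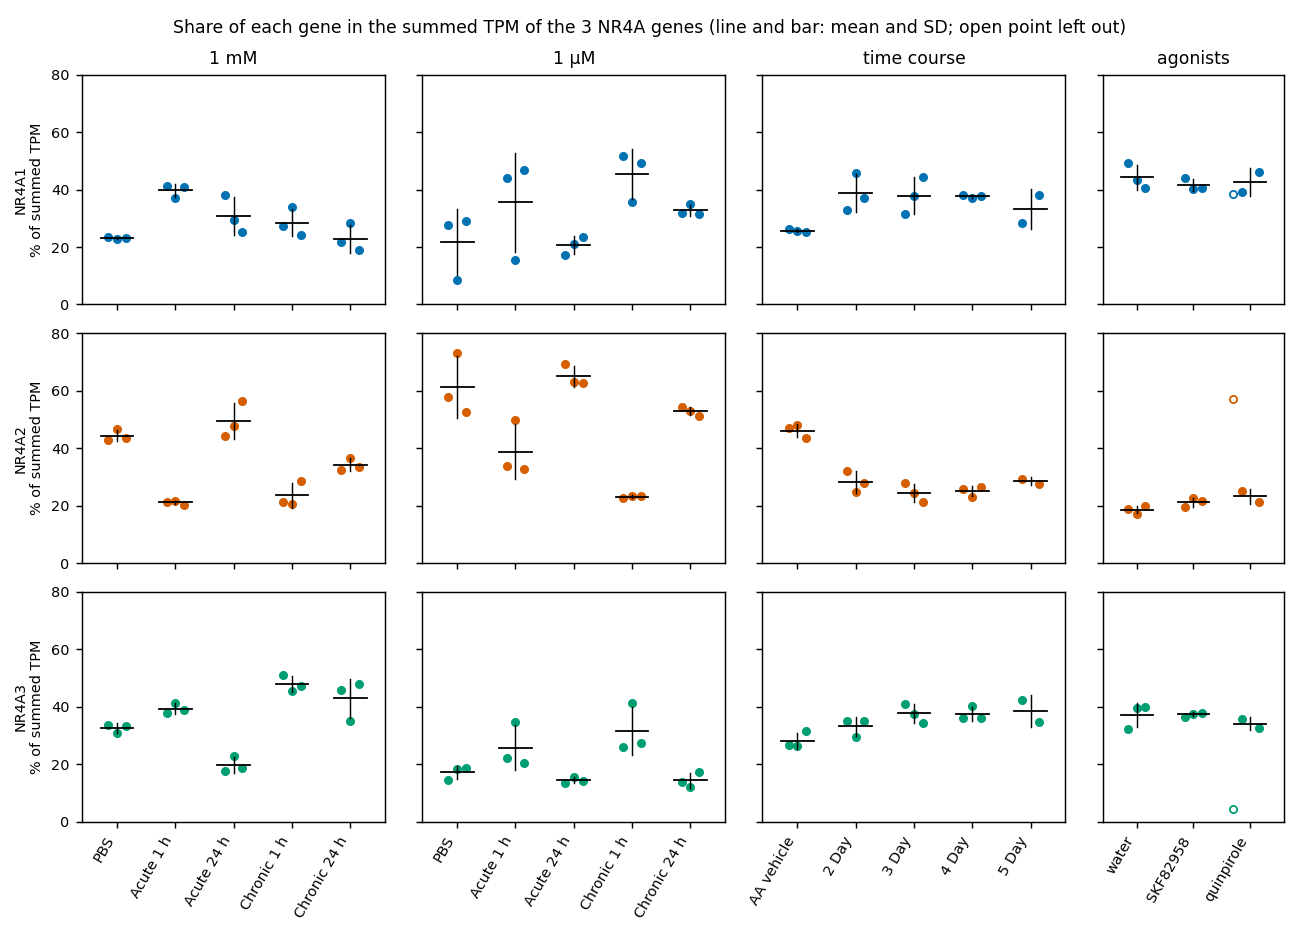
Share (%) of each NR4A gene (rows) in the summed TPM of the 3 genes, per library (points), with the mean and SD of each condition as a line and bar and quinpirole replicate 1 as an open point outside both. NR4A2 falls from 42.9% to 46.6% in PBS of 1 mM to 20.3% to 21.6% at Acute 1 h and stands at 44.2% to 56.4% at Acute 24 h.

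Ordered by mean TPM over the 18 conditions, with quinpirole taken without replicate 1, NR4A1 ran from 76.1 ± 4.72 (SD, n = 3) after SKF82958 to 7.51 ± 0.751 (SD, n = 3) in the AA vehicle, a ratio of 10.1. Of its 17 pairs of neighbors in this order, 16 overlapped in range, and only SKF82958 stood clear of the next condition. NR4A2 had the narrowest range, from 41.3 ± 2.67 at Acute 1 h of 1 µM to 6.73 ± 1.91 on 3 Day, a ratio of 6.14, with 14 of 17 pairs overlapping. NR4A3 ran from 68.4 ± 3.19 after SKF82958 to 5.76 ± 0.988 at Acute 24 h of 1 µM, a ratio of 11.9, with 12 of 17 pairs overlapping. The conditions belong to 4 experiments with controls of their own, and differences between experiments are part of this order.

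Intron reads can stand for transcripts not yet spliced. For NR4A1 they rose with the exon reads at 1 mM Acute 1 h, by 2.07 on the log2 scale (adjusted p = 3.93e-06) beside 2.00 for exon reads, where 45.2% of genes passed by intron reads. At 1 µM the intron value was 1.16 (adjusted p = 0.0712) beside 2.19 for exon reads. For NR4A3 the values were 2.37 at 1 mM (adjusted p = 2.33e-05) and 3.04 at 1 µM (adjusted p = 0.00156), but the antisense gene STX17-AS1 spans the whole of NR4A3 and none of the 53 libraries had an intron read assigned to NR4A3 alone. The strand used in counting is not given in the sources used here, so these intron reads cannot be told apart from those of STX17-AS1. The tests of NR4A3 on total gene reads include them. They were 19.6% to 26.1% of its reads at 1 µM Acute 1 h and 8.46% to 11.1% in PBS. By TPM, which counts exon reads, NR4A3 still had means of 27.1 and 7.22 in these groups. For NR4A2 at Chronic 1 h, intron reads gave -0.83 at 1 mM (adjusted p = 0.0153) and -0.84 at 1 µM (adjusted p = 0.0887), where 2.54% and 8.57% of genes passed. NR4A1AS, which overlaps the end of NR4A1 on the other strand, had 50 reads over all 53 libraries, against 36592 of NR4A1.

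The NR4A responses were set beside those of the EGR and FOS families, which are also immediate early genes. At 1 mM Acute 1 h the 4 EGR genes (zinc finger transcription factors) changed by 3.76 (EGR2) to 6.49 (EGR4) on the log2 scale, all DEGs, and FOS and FOSB (components of AP-1) by 4.29 and 7.11. NR4A1 and NR4A3 at 2.14 and 1.78 were close to FOSL2, at 1.77 (adjusted p = 0.000605), and above FOSL1, at 1.01 (adjusted p = 0.0615). At 1 mM Chronic 1 h all 4 EGR genes, FOS and FOSB were DEGs above PBS, with EGR3 at 4.23 (adjusted p = 0.000773) and FOSB at 3.62 (adjusted p = 0.00138), whereas none of the NR4A genes passed upward. At 1 mM Acute 24 h, EGR1 had 3.93 (adjusted p = 0.00473) and EGR3 2.08 (adjusted p = 0.00446), on the other side of PBS from NR4A3 at -0.98. These EGR values were not refitted without Acute 24 h replicate 1, so how far they rest on that library is not known here. Over the time course EGR1 lay between 2.84 and 3.25 and FOS between 2.15 and 2.44 on every day, above the NR4A1 values of 0.55 to 1.02. These differences in size between genes were not tested.

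**Figure D4:**
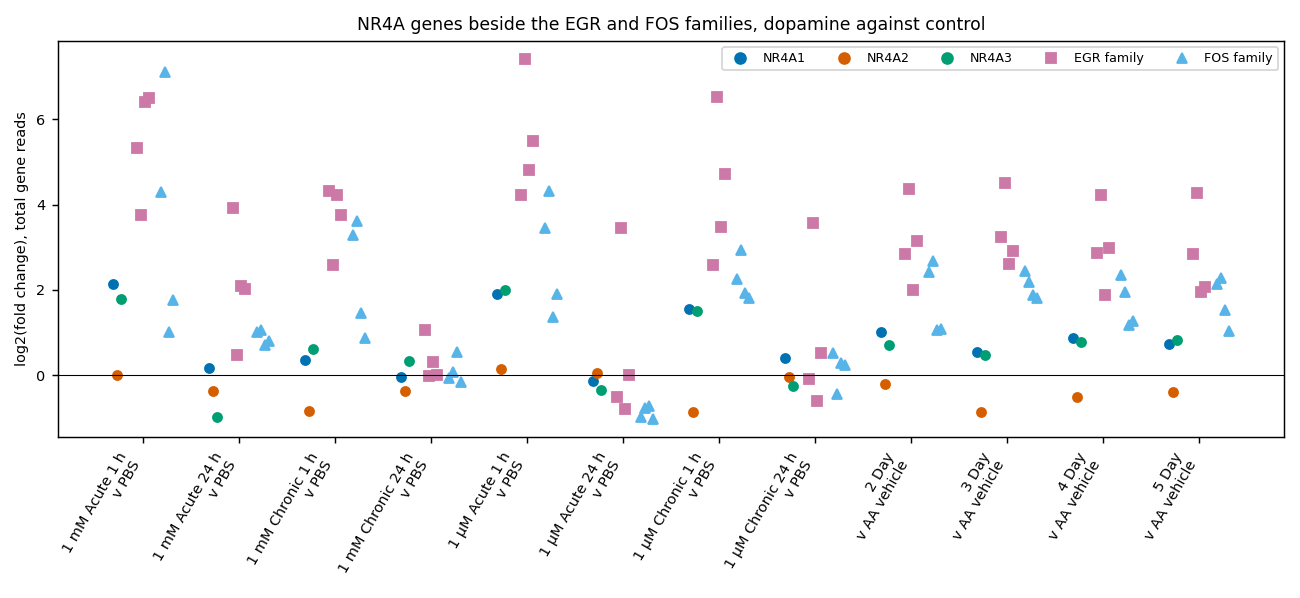
log2(fold change) by total gene reads (vertical axis) of the NR4A genes and of the EGR and FOS families in the 12 comparisons of dopamine with its control (horizontal axis), 1 point per gene. EGR4 reaches 6.49 at 1 mM Acute 1 h where NR4A1 is at 2.14, and NR4A2 lies at or below 0 in most comparisons.

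Of 45 other nuclear receptors, 43 were tested in the dopamine experiments. At 1 mM Acute 1 h, 6 of them rose and 19 fell by the adjusted p-value, beside 47.2% of all genes that passed, with a median log2(fold change) of -0.39 beside -0.09 over all genes. DEGs were NR2F2 (COUP-TFII) at 1.03, ESRRG at -1.51, PPARG at -1.5 and THRB at -1.02. RXRA rose by 0.60 (adjusted p = 0.00586) and RXRB by 0.25 (adjusted p = 0.0423), while RXRG had 0.08 (adjusted p = 0.778). All values of these receptors come from total gene reads, and no fit on exon reads is given for them. The share of intron reads was lower at 1 mM Acute 1 h than in PBS, so a fall in total gene reads need not be a fall in spliced RNA. Mean TPM of RXRB was 66.2 at Acute 1 h and 70.6 in PBS. At 1 µM Acute 1 h, where 5.83% of all genes passed, 1 of 43 did, NR1D1 (REV-ERBα, a circadian repressor) at -1.34 (adjusted p = 0.00738), and the RXR genes had 0.03, -0.36 and -0.54 with adjusted p-values of 0.966, 0.633 and 0.438. At Chronic 1 h, 1 of 43 fell at each dose, beside 0.992% of all genes passing at 1 mM and 3.58% at 1 µM.

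Of 18 regulators of the CREB, CRTC, MEF2 and SRF pathways, 3 rose and 2 fell at 1 mM Acute 1 h, a smaller share than the 47.2% of all genes, with a median of 0.01. SIK1, a kinase that restrains CRTC coactivators, rose by 2.17 (adjusted p = 8.12e-05), SRF rose by 1.57 (adjusted p = 6.23e-05) and MEF2C fell by 1.10 (adjusted p = 0.000271). The values in this paragraph are also from total gene reads, without a fit on exon reads, so the same limit holds for the falls. SIK1 was still above PBS at 1 mM Chronic 1 h, at 1.25 (adjusted p = 0.0214). At 1 µM Acute 1 h edgeR passed 0 of the 18 (1 with an unadjusted p under 0.05), beside 5.83% of all genes, and the median was 0.00. Of 12 genes linked to NR4A2 in dopamine neurons, 9 were tested at 1 mM and 1 fell at Acute 1 h, again a smaller share than over all genes, ALDH1A1 at -1.03 (adjusted p = 0.0018). In the same list 0 of 9 at 1 mM and 0 of 8 at 1 µM passed in edgeR at Chronic 1 h (1 and 0 with an unadjusted p under 0.05). Of all genes 0.992% and 3.58% passed there, so counts of 0 in lists this short say little about whether these genes followed NR4A2. RET, the GDNF receptor, was a DEG on 2 Day at 1.11 (adjusted p = 0.0235) and on 4 Day at 1.05 (adjusted p = 0.0378), and BDNF on 2 Day, 4 Day and 5 Day at 0.80, 0.75 and 0.89.

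Likeness to each member was measured as Pearson's r over the 14 differences of group mean log2(TPM + 0.5) between a treatment and its control, which share control libraries. NR4A1 and NR4A3 were alike, with r = 0.815 over all libraries and 0.836 without quinpirole replicate 1, NR4A3 being among the 5 genes most like NR4A1 both times. NR4A2 had r = 0.235 with NR4A1 and 0.053 with NR4A3, or 0.296 and 0.292 without that library. The 5 genes most like NR4A1 were SIK1B (0.868), NPTX2 (0.821), NR4A3, PTPRCAP (0.811) and AC103740.2 (0.797). Those most like NR4A3 were NR4A1, ERMN (0.781), AC103740.2 (0.78), SIK1B (0.764) and AC098484.4 (0.757). Those most like NR4A2 were INTU (0.915), TTLL9 (0.914), MAK (0.903), CNTLN (0.885) and CD163 (0.883). Without quinpirole replicate 1, SIK1B and NR4A3 stayed among the 5 for NR4A1, NR4A1 stayed for NR4A3, and MAK, CNTLN and TTLL9 stayed for NR4A2. SIK1B is a near copy of SIK1, and reads of the 2 genes may be shared.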

How the data were processed

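The RNA-seq data of H9 hMSN-like cells were deposited as 1 table for each library, and 53 of 54 samples were used (5 Day replicate 1 was not analysed here). The authors trimmed the reads and mapped them in CLC Genomics Workbench to GRCh38 with an Ensembl annotation (hg38 in the submitters' processing notes), and deposited counts of reads per gene on exons, on introns and in total. The deposited TPM was computed by the authors from exon reads. Groups were taken from the sample labels, and nothing in the labels says that replicates came from separate differentiations, so p-values measure the spread between these libraries.

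Counts were tested here with edgeR 4.0.16 in R 4.3.3 (filterByExpr with a minimum count of 10 and a minimum total of 15, TMM, glmQLFit, glmQLFTest and Benjamini-Hochberg adjustment over all genes tested), with the conditions of an experiment in 1 fit. The SE was taken from the size of the log2(fold change) over the root of its F statistic. The test was tried on simulated counts, where changed genes with low counts were missed more often. DESeq2 missed a limit first set on recovery over all genes, and the limit was then kept only for genes with higher counts. Alternatives were exon, intron or uniquely mapped reads alone, DESeq2 1.42.0 and its size factors, no filter, the replicate number as a block, only the groups compared, no fold threshold and each library left out. Exon reads with a library left out, and likeness without quinpirole replicate 1, were chosen after seeing the data. The 3 members are always named, other lists are given by counts, at most 4 called members with the largest change and the RXR genes, and the 5 genes most like each member are named. The members and lists were chosen with earlier results of these data known. No sequencing batch is given in the labels, and 3 libraries a group limit the precision.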

Additional observations from a re-analysis of the deposited data

Results flagged for a closer look

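Here 6 results were marked because the libraries of 2 treatments lay on opposite sides of those of the same control by TPM, with no overlap of any library with it. NR4A3 was above PBS at Acute 1 h and below it at Acute 24 h, with a log2(fold change) between the 2 of -2.76 at 1 mM (adjusted p = 1.18e-05) and of -2.33 at 1 µM (adjusted p = 1.21e-05). NR4A2 at 1 µM was above PBS by TPM at Acute 1 h and below it at Chronic 1 h, with -1.01 between the 2 (adjusted p = 0.00654). NR4A3 was also above PBS at Chronic 1 h and below it at Acute 24 h, with a ratio of mean TPM of 3.27 at 1 mM and 3.37 at 1 µM. At 1 mM it was above PBS at Chronic 24 h as well, at a ratio of 2.73 to Acute 24 h. These last 3 differences were not tested. Not every side passed the test against PBS. NR4A3 at Acute 24 h passed at 1 mM (adjusted p = 0.0022) and not at 1 µM (adjusted p = 0.379), NR4A2 at 1 µM Acute 1 h did not (adjusted p = 0.525), and NR4A3 at 1 mM passed neither at Chronic 1 h (adjusted p = 0.149) nor at Chronic 24 h (adjusted p = 0.863).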

How the results depend on the processing

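The number of NR4A genes called was recomputed for each of 25 comparisons. For 1 mM Acute 1 h against PBS it stayed at 2 under every alternative run. Over all comparisons and alternatives it kept to within 1.5 times its value in 324 refits and did not in 74. With exon reads alone it was 1 for 1 mM Acute 24 h (0 in the fit reported), 1 for 1 mM Chronic against Acute 1 h (2), 2 for 1 µM Acute 24 h against 1 h (1), 2 for 1 µM Chronic 1 h (1), 2 for 3 Day (1) and 2 for 5 Day (1). With intron reads alone it was 1 for 1 mM Acute 24 h, 1 for 1 µM Acute 1 h, 0 for 1 µM Chronic 1 h, 0 for 1 µM Chronic against Acute 1 h, 1 for 2 Day, 0 for 4 Day, 0 for 5 Day and 1 for the difference between doses at Acute 1 h. Uniquely mapped reads, DESeq2's size factors and no filter on low counts each gave 2 for 3 Day and 2 for 5 Day. DESeq2's size factors also gave 2 for 1 µM Acute 24 h against 1 h, and no filter 0 for 1 µM Chronic against Acute 1 h. DESeq2 itself gave 2 for 1 µM Acute 24 h against 1 h, 2 for 1 µM Chronic 1 h, 3 for 3 Day and 2 for 5 Day. With no fold threshold it was 1 for 1 mM Acute 24 h, 1 for 1 mM Chronic 1 h, 2 for 1 µM Chronic 1 h and 2 for 1 µM Chronic 24 h against 1 h, in fits that called 24.4%, 0.938%, 3.43% and 1.53% of all genes. With only the groups compared it was 1 for 1 mM Acute 24 h against 1 h, 1 for 1 µM Acute 1 h, 0 for 1 µM Chronic against Acute 1 h, 2 for 3 Day, 0 for 5 Day and 3 for SKF82958. The fit for the dose difference with intron reads called 30.5% of all genes, and the other fits with a changed number whose share is not given above called 0% to 7.69%. The cause of these changes was not tested.

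Leaving out 1 library gave 0 to 1 for 1 mM Acute 24 h, 1 to 2 for 1 mM Chronic against Acute 1 h, 1 to 2 for 1 µM Acute 1 h, 1 to 2 for 1 µM Acute 24 h against 1 h, 0 to 1 for 1 µM Chronic against Acute 1 h, 1 to 2 for 1 µM Chronic 1 h, 1 to 2 for 2 Day, 0 to 2 for 4 Day, 0 to 1 for 5 Day, 0 to 1 for 5 Day against 3 Day (1 without 3 Day replicate 1), 0 to 1 for quinpirole and 0 to 3 for SKF82958. Exon reads with a library left out were chosen after seeing the data. They gave 1 for 1 mM Acute 24 h and 1 for 1 mM Chronic against Acute 1 h without Acute 24 h replicate 1, and 3 for SKF82958 and 3 for quinpirole without quinpirole replicate 1. Without replicate 2 of PBS and Acute 1 h at 1 µM, libraries picked because their NR4A1 values were low, they gave 2 for Acute 24 h against 1 h, 2 for Chronic 1 h and 2 for Chronic 24 h against 1 h.

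With the replicate number as a block the number was 1 for 1 mM Acute 24 h, 2 for 1 µM Chronic 1 h and 0 for 5 Day, NR4A2 at 1 mM Acute 1 h went from 0.003 to -0.009 and NR4A3 after quinpirole to -0.09. No other number of calls moved beyond 1.5 times under the block. Same-numbered libraries had a mean correlation of -0.0045 at 1 mM, 0.0787 at 1 µM, -0.0488 in the time course and -0.0882 with the agonists, and 3 of 15, 8 of 15, 4 of 14 and 1 of 9 libraries correlated best with their own number. Correlations over 0.1 were found in 2 of 30 same-numbered pairs at 1 mM, 11 of 30 at 1 µM (up to 0.73), 6 of 26 in the time course and 2 of 9 with the agonists. No experiment had every pair over 0.1, so the numbers were not taken to pair the samples, while the values at 1 µM are a hint from the data that some libraries share more than a number.

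In 44 refits the log2(fold change) of a gene changed sign, in each case from a value that had not passed. With intron reads NR4A1 was at -0.14 at 1 µM Chronic 24 h, 0.05 at 5 Day against 2 Day and -0.007 at 5 Day against 3 Day, NR4A2 at -0.68 at 1 µM Acute 1 h, 0.92 at 1 µM Acute 24 h against 1 h, 0.38 at 1 µM Chronic 24 h and 0.97 for the dose difference at Acute 1 h (adjusted p = 0.0301), and NR4A3 at -0.21 at 1 mM Chronic 24 h. With exon reads NR4A1 was at -0.17 for the dose difference at Acute 1 h, and NR4A2 at -0.093 at 1 µM Acute 24 h, -0.065 for the dose difference at Chronic 1 h and -0.045 for SKF82958 against quinpirole (-0.059 without quinpirole replicate 1). Exon reads without Acute 24 h replicate 1 put NR4A1 at -0.50 at 1 mM Acute 24 h. Uniquely mapped reads put NR4A2 at -0.005 at 1 mM Acute 1 h and NR4A3 at 0.065 for the dose difference at Acute 1 h, and no filter put NR4A2 at 0.053 for that difference. Leaving out 1 library, NR4A1 ranged from -0.26 to 0.45 at 1 mM Acute 24 h, from -0.20 to 0.11 at 1 mM Chronic 24 h, from -0.76 to 0.032 at 1 µM Chronic against Acute 1 h, from -0.087 to 0.37 at 5 Day against 3 Day, from -0.10 to 0.78 for the dose difference at Acute 1 h, from -0.15 to 0.85 for quinpirole and from -0.01 to 0.98 for SKF82958 against quinpirole. NR4A2 ranged from -0.13 to 0.091 at 1 mM Acute 1 h, from -0.16 to 0.013 at 1 µM Acute 24 h against 1 h, from -0.043 to 0.11 at 1 µM Acute 24 h, from -0.10 to 0.009 at 1 µM Chronic 24 h, from -0.24 to 0.12 and from -0.12 to 0.15 for the dose differences at Acute and Chronic 1 h, and from -0.10 to 0.94 for SKF82958 against quinpirole. NR4A3 ranged from -0.04 to 0.24 at 5 Day against 2 Day, from -0.31 to 0.024 for the dose difference at Acute 1 h and from -0.44 to 0.92 for quinpirole. Quinpirole replicate 1 is the most limited library, with 137051 exon reads and 1327 junction reads among 4121674 gene reads. Its limit lies mainly in the 96.7% of reads in introns and less in depth.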
